A study of Homo sapiens with 18 samples.

Results

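The 40 genes described here encode parts of the lysosome and of the V-ATPase, the proton pump of its membrane, together with transcription factors that act on such genes. They were listed by name, with earlier results of these data known, and they are 40 of the 23368 genes in the count tables. By role they are 3 transcription factors, 4 membrane proteins, 18 hydrolases and their activators or partners, 6 genes of the membrane sector V0 (an accessory subunit among them), 7 subunits of the cytosolic sector V1, and a pair outside these classes, the cargo receptor SQSTM1 and the glycoprotein GPNMB. All 40 passed the filter on low counts in every comparison. TFEB had by far the fewest reads, 13 to 69 per library.

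The cells were SJSA, an osteosarcoma cell line with amplified MDM2 and CDK4, and the 18 libraries fell into 6 groups of 3. The DMSO group received solvent, the PD30 group 10 µM PD0332991 (Palbociclib, an inhibitor of CDK4 and CDK6) for 30 h, and the PD24 group the same dose for 24 h followed by 6 h without drug. The Nutlin, N+PD24 and N+PD30 groups additionally received 20 µM Nutlin, which frees p53 from MDM2, in the last 6 h, so that in N+PD24 it was given after PD0332991 had been removed. All groups were of this 1 line. The dose of 20 µM is that in the sample labels, whereas a supplementary scheme of the study, for liposarcoma lines, also names a lower one. PD0332991 is a weak base, and the question put to these genes was whether their mRNAs were higher while the drug was present and lower again after its removal.

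The total count per library lay between 12704845 and 40231041, with a median of 29608936, and the shallowest library was N+PD30 replicate 1. Levels are given as CPM (counts per 1000000 counts) scaled by the trimmed mean of M values (TMM). The osteoblast marker SPARC had group means of 1405 to 2874 CPM and RUNX2 of 20.8 to 29.7 CPM. The proliferation marker MKI67 went from 672 ± 51.6 CPM (SD, n = 3) in DMSO to 3.84 ± 0.671 in PD24 and 4.96 ± 0.994 in PD30. The p53 target CDKN1A went from 181 ± 39.1 CPM in DMSO to 4027 ± 237 in Nutlin. MKI67 was also lower in N+PD24 (3.12 CPM) and N+PD30 (3.07 CPM) than in Nutlin (262 CPM). It thus moved with every comparison of a PD0332991 group with its control, and the part of cell cycle arrest in those results was not tested.

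Lysosomes digest proteins, glycans, lipids and nucleic acids with acid hydrolases. The V-ATPase keeps them acidic by coupling ATP hydrolysis in the V1 sector to proton transport through V0. The MiT factors TFEB, TFE3 and MITF are held in the cytosol when the kinase complex mTORC1 is active at the lysosome and enter the nucleus under starvation or lysosomal stress. There they bind the E-box CACGTG, most often within the CLEAR element around TCACGTGA, in the promoters of lysosomal genes. Weak bases can be trapped in the acidic lumen because they are protonated there.

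Promoter sequences from 250 bases before to 50 bases after the start of the gene were available for 28 of the 40 genes from RefSeq (build GRCh38.p14), and the E-box was searched in them on both strands. CACGTG, which is its own reverse complement, was found in 10 of the 28 (35.7%), compared with 8.78% of 27305 genes with a promoter of this length. The longer TCACGTG or its reverse complement CACGTGA was found in 9 of the 28 (32.1%, compared with 4.49%), and the full 8 bases TCACGTGA in 5 (17.9%, compared with 1.18%). The 3 searches overlap, since each longer match contains the shorter one. The genes with a match were ATP6V0B, NEU1, ATP6V1G1, CTSD, CTSF, LAMP1, ATP6V0D1, MCOLN1, CTSA and CD63. Among the 18 genes searched without a match were GPNMB, LIPA, ATP6V0A1 and TPP1, which had large rises in PD30. No promoter was available for ASAH1 or ATP6V1C1. Stretches before some of the genes with a match are printed here to show how the matches stand. These stretches are those of the channel MCOLN1, the hydrolase NEU1, its partner CTSA, the V1 subunit ATP6V1G1 and the membrane protein LAMP1. Each is 100 bases, written 5′ to 3′ on the strand of the gene, with the bases matched by the 7-base or 8-base search in capitals.
MCOLN1, chr19:7522524-7522623, plus strand, ends 1 base before the start: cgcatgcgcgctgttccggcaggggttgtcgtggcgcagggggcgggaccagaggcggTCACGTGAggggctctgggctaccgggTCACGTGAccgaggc
CTSA, chr20:45891235-45891334, plus strand, ends 1 base before the start: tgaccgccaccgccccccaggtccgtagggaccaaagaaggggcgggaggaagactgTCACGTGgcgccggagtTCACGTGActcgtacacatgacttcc
ATP6V1G1, chr9:114587669-114587768, plus strand, ends 1 base before the start: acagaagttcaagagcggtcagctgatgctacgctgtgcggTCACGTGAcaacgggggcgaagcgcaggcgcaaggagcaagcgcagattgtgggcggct
NEU1, chr6:31862858-31862957, minus strand, ends 37 bases before the start: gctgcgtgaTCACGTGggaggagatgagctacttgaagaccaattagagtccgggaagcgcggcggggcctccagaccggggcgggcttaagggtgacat
LAMP1, chr13:113297037-113297136, plus strand, ends 103 bases before the start: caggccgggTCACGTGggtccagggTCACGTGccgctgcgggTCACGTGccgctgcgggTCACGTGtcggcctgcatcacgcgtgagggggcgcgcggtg
MCOLN1 held 2 copies of the full 8 bases, and the LAMP1 stretch held 4 copies of the 7-base form. Nearer its start, outside the stretch printed, LAMP1 also held the full 8 bases. A match is a string of letters and says nothing of whether a factor was bound in these cells. The median log2 difference between PD30 and DMSO was 0.76 in the 10 genes with CACGTG and 0.51 in the 18 without it, or 0.72 and 0.61 by the 7-base search. The order was the other way between PD30 and PD24 (0.12 with CACGTG and 0.21 without) and between Nutlin and DMSO (0.31 and 0.35), and the difference between the 2 sets was not tested.

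When PD0332991 was present for 30 h, the lysosomal genes were higher as a group. Between PD30 and DMSO 33 of the 40 genes rose and 2 fell, compared with 22.9% and 25.4% of the 15125 genes tested (edgeR's quasi-likelihood test, Benjamini-Hochberg adjusted p below 0.05). Of these, 8 rose by more than 1 on the log2 scale, which 5.76% of all genes did. The median log2 difference of the members was 0.66, and that of all genes was 0.0020. In 32 genes all 3 PD30 libraries lay above all 3 DMSO libraries, which held for 25.9% of all genes, and in 2 all lay below, which held for 31% of all genes. The summed level of the 40 genes was 9139.6, 9476 and 9178 CPM in the DMSO libraries and 14054, 14724 and 14209 CPM in the PD30 libraries. In bulk RNA a larger share of cells with high levels cannot be told apart from more mRNA in every cell.

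After the drug had been removed for 6 h, most of these genes were still above DMSO. Between PD24 and DMSO 31 rose and 2 fell, compared with 17.5% and 20.8% of 15094 genes, and the median difference was 0.47, with 0.024 for all genes. In 34 genes all PD24 libraries lay above all DMSO libraries (23.8% of all genes) and in 2 below (26.7% of all genes). PD30 and PD24 were compared with the same DMSO libraries, so the 2 comparisons are not independent. The order of the 3 group means uses all of them. In 29 of the 40 genes (72.5%) DMSO had the lowest mean, PD24 a middle one and PD30 the highest, compared with 17.97% of all genes. In 7 (17.5%, compared with 17.41% of all genes) PD24 had the highest mean and PD30 a middle one. With DMSO lowest only these 2 orders are possible, so both shares partly repeat the rise over DMSO. The 2 orders were about equally common among all genes. SQSTM1 also had its highest mean in PD24, with PD30 lowest.

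**Figure D1:**
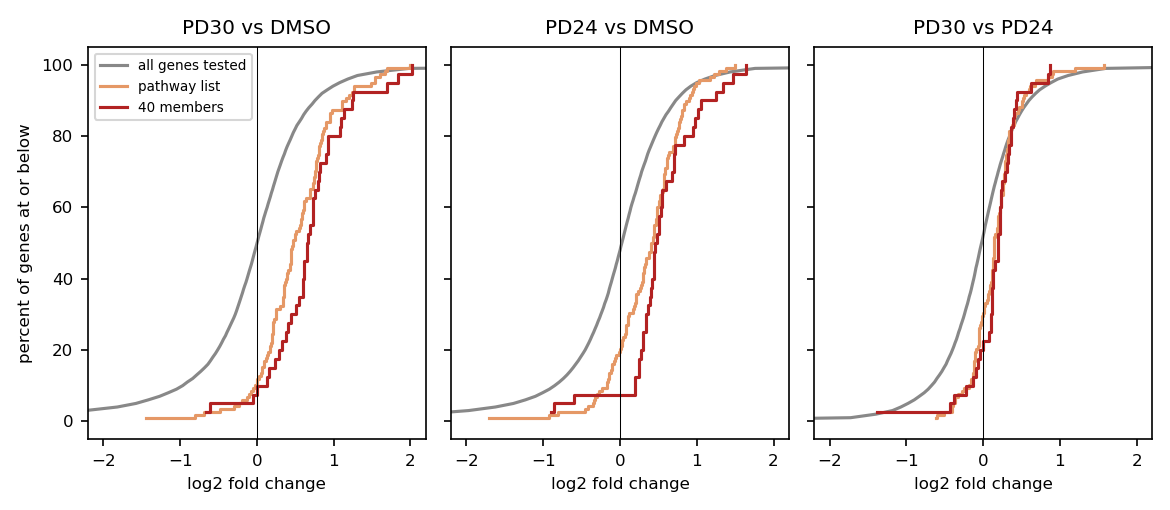
Cumulative share of genes (vertical axis) against the log2 difference (horizontal axis) for PD30 vs DMSO, PD24 vs DMSO and PD30 vs PD24, with the 40 members, the list of other lysosomal pathway genes and all genes tested as separate lines. The members' line lies to the right of the line for all genes in the first 2 panels, with medians of 0.66 and 0.47, and closer to it in the third, with a median of 0.20.

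The plot of all members by library shows the same in single libraries, with the strongest colours in GPNMB, NEU1 and ASAH1 and the opposite colour in GUSB and GLA.

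**Figure D2:**
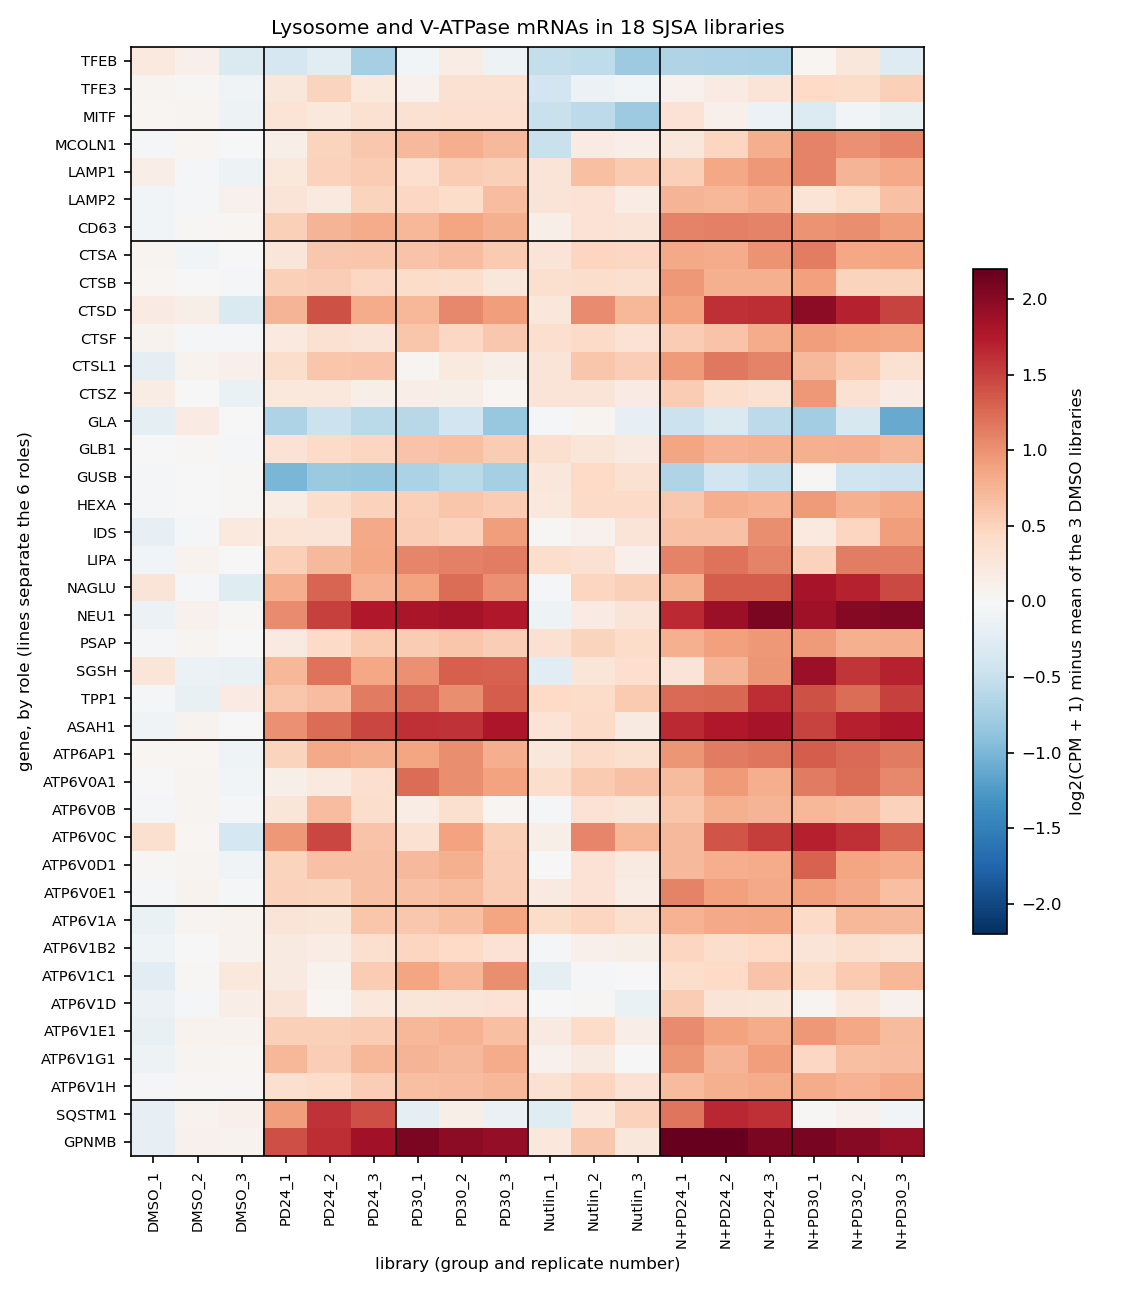
Difference of each member (rows, by role) in each library (columns, by group) from the mean of the DMSO libraries, as log2(CPM + 1). Most rows are higher in the PD24, PD30, N+PD24 and N+PD30 libraries, GUSB and GLA are lower there, and SQSTM1 is high in the PD24 and N+PD24 libraries.

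Of the 3 transcription factors TFE3 and MITF rose under PD0332991 alone. TFE3 was the most abundant of the 3 per length of exon, with 23.9 ± 1.23 CPM per kb in DMSO, compared with 5.75 ± 0.370 for MITF and 0.235 ± 0.0717 for TFEB. TFE3 lay at 104, 102 and 94.6 CPM in DMSO, 119, 141 and 118 in PD24 and 107, 127 and 126 in PD30. Its DMSO libraries were the lowest without overlap, while PD24 and PD30 overlapped. TFE3 rose by 0.29 ± 0.082 (log2 ± SE) in PD30 and by 0.34 ± 0.11 in PD24 (edgeR, adjusted p = 0.0161 and 0.0336). The first call was lost without DMSO replicate 2, DMSO replicate 3 or PD30 replicate 2 (adjusted p 0.0556, 0.0581 and 0.0536), and the second without any 1 of the DMSO libraries or PD24 replicate 2 (p up to 0.115). MITF lay at 44, 44.5 and 39.5 CPM in DMSO, 52.7, 50.4 and 54.0 in PD24 and 54.3, 55.6 and 55.6 in PD30, again with DMSO lowest. It rose by 0.40 ± 0.082 in PD30 and by 0.30 ± 0.10 in PD24 (edgeR, adjusted p = 0.00299 and 0.0338), and the PD24 call was lost on leaving out any 1 of the 6 libraries (p 0.0513 to 0.134). TFEB, whose product is the best known activator of lysosomal genes, lay at 1.94, 1.76 and 1.03 CPM in DMSO, 0.974, 1.14 and 0.541 in PD24 and 1.43, 1.86 and 1.34 in PD30. All PD24 libraries were below all PD30 libraries, and DMSO overlapped both. The TFEB difference between PD30 and DMSO was 0.0020 ± 0.26 (edgeR, adjusted p = 0.996). Between PD24 and DMSO it was -0.86 ± 0.35 (edgeR, adjusted p = 0.0782), which was called lower without DMSO replicate 3 (adjusted p = 0.0384). It was also called lower by edgeR with the replicate block (adjusted p = 0.0157), but replicate numbers did not pair the libraries of these groups.

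With Nutlin alone, by contrast, TFEB and MITF fell. In the Nutlin libraries TFEB lay at 0.766, 0.725 and 0.468 CPM and MITF at 30.1, 28.2 and 23.9 CPM, below every DMSO library in both genes. TFEB fell by 1.17 ± 0.31 and MITF by 0.55 ± 0.11 on the log2 scale (edgeR, adjusted p = 0.00916 and 0.00232). TFE3 lay at 74.5, 91.3 and 96.1 CPM with Nutlin, overlapping DMSO (log2 -0.12 ± 0.11, adjusted p = 0.384). In N+PD30 the levels were 1.63, 2.01 and 1.09 CPM for TFEB, 34.5, 40.9 and 37.7 for MITF and 136, 134 and 145 for TFE3. All 3 lay above the Nutlin libraries, with log2 differences of 1.24, 0.42 and 0.63 (edgeR, adjusted p = 0.00950, 0.0236 and 0.00223). By the same edgeR test the TFEB call was lost without N+PD30 replicate 2 (adjusted p = 0.0644), and the MITF call without Nutlin replicate 2, Nutlin replicate 3 or N+PD30 replicate 2 (p 0.0635, 0.0912 and 0.111). In N+PD24, TFEB lay at 0.618, 0.597 and 0.564 CPM, within the range of Nutlin, whereas MITF at 53.1, 45.8 and 38.8 CPM and TFE3 at 108, 114 and 122 CPM lay above it. For MITF the log2 difference was 0.73 ± 0.15 and for TFE3 0.40 ± 0.12 (limma, adjusted p = 0.00439 and 0.0263). The TFE3 call was lost without Nutlin replicate 1 or 2 or N+PD24 replicate 2 or 3 (p 0.0632 to 0.0904).

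The 4 membrane proteins all rose in PD30, by 0.51 to 0.82 on the log2 scale, and all 4 in PD24, by 0.34 to 0.71 (of all genes 22.9% and 17.5% rose). MCOLN1, the calcium channel of the lysosomal membrane, lay at 18.7, 19.9 and 19.4 CPM in DMSO, 21.3, 27.5 and 29.8 in PD24 and 32.5, 34.2 and 32.5 in PD30. The 3 groups were fully separated in that order. MCOLN1 was 1.75-fold higher in PD30 (log2 0.80 ± 0.090, edgeR adjusted p = 7.97e-05) and 1.36-fold higher in PD24 (adjusted p = 0.0331). The PD24 call was lost without any 1 of the DMSO libraries or PD24 replicate 2 or 3 (p 0.0766 to 0.0971). Under Nutlin it lay at 13.5, 22.1 and 21.5 CPM alone, 23.2, 27.1 and 34.3 in N+PD24 and 42.5, 39.7 and 41.8 in N+PD30, again fully separated. Its exons overlap those of PNPLA6 on the same strand, so reads of the 2 genes can be confused there. LAMP1, a main glycoprotein of the lysosomal membrane, lay at 392, 347 and 329 CPM in DMSO, 417, 505 and 521 in PD24 and 457, 523 and 513 in PD30. PD24 and PD30 overlapped, and both lay above DMSO (log2 0.44 and 0.51, edgeR adjusted p = 0.0127 and 8.65e-04). The PD24 call of LAMP1 was lost without DMSO replicate 2 or 3 (p 0.0595 and 0.0520). LAMP1 lay at 432, 559.6 and 526 CPM with Nutlin, 509.7, 644 and 692 in N+PD24 and 754, 598 and 636 in N+PD30. CD63, a tetraspanin of late endosomes and lysosomes, had group means of 465 CPM in DMSO, 758 in PD24, 807 in PD30, 552 in Nutlin, 997 in N+PD24 and 916 in N+PD30.

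Of the 18 hydrolases and partners, 14 rose and 2 fell in PD30, with a median of 0.65, and 14 rose and 2 fell in PD24. Of all genes 22.9% rose and 25.4% fell in PD30, and 17.5% and 20.8% in PD24. NEU1, the lysosomal sialidase, lay at 56.8, 66.5 and 63.3 CPM in DMSO, 128, 179 and 212 in PD24 and 218, 222 and 214 in PD30. The DMSO libraries were all lowest and the PD30 libraries all highest. NEU1 was 3.58-fold higher in PD30 (log2 1.84 ± 0.085, edgeR adjusted p = 1.78e-07) and 2.79-fold higher in PD24 (log2 1.48 ± 0.17, adjusted p = 1.93e-04). With Nutlin it lay at 57.5, 70.6 and 76.0 CPM alone, 195, 231 and 263 in N+PD24 and 229, 254 and 257 in N+PD30. These 2 combined groups overlapped each other and stood 3.36-fold and 3.54-fold above Nutlin, the former on the log2(CPM + 1) scale. CTSA, which holds NEU1 in a stable complex, rose by 0.66 in PD30 and 0.51 in PD24, and its exons overlap NEURL2 and PLTP.

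ASAH1, acid ceramidase, lay at 188, 209 and 200.2 CPM in DMSO, 398, 469 and 550.1 in PD24 and 610.1, 599 and 686 in PD30. Each group lay wholly above the one before. ASAH1 was 3.24-fold higher in PD30 (log2 1.70 ± 0.081, edgeR adjusted p = 2.25e-07), and its level was 244, 266 and 229 CPM with Nutlin, 623, 676 and 701 in N+PD24 and 558, 654 and 685 in N+PD30. The latter pair overlapped. LIPA, the acid lipase that releases cholesterol from its esters, lay at 122, 136 and 127 CPM in DMSO, 185, 210.1 and 232 in PD24 and 271, 279 and 279.7 in PD30, also without overlap. It rose by 1.14 ± 0.072 in PD30 and 0.71 ± 0.10 in PD24 (edgeR, adjusted p = 1.69e-06 and 7.71e-04). Under Nutlin, LIPA lay at 168, 161 and 139 CPM alone, 273, 294 and 275 in N+PD24 and 184, 279 and 282 in N+PD30. N+PD30 replicate 1, the shallowest library, was well below the other 2 of its group here.

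The cathepsins, the main lysosomal proteases, did not share 1 pattern. CTSD, the aspartic protease, lay at 721, 695 and 509 CPM in DMSO, 1065, 1669.9 and 1117 in PD24 and 1049.8, 1327 and 1194 in PD30, with PD24 and PD30 overlapping above DMSO. CTSD was 1.89-fold higher in PD30 and 2.01-fold higher in PD24 (edgeR, adjusted p = 3.62e-04 and 0.00364). It lay at 751, 1303 and 1058 CPM with Nutlin, 1172, 1934 and 1958 in N+PD24 and 2483, 2047 and 1776 in N+PD30, and N+PD24 overlapped Nutlin. CTSB, a cysteine protease, lay at 2073, 2027 and 1955 CPM in DMSO, 2885, 2941 and 2766 in PD24 and 2668, 2623 and 2404 in PD30. All its PD24 libraries were above all PD30 libraries, and both groups were above DMSO by 0.51 and 0.38 on the log2 scale (edgeR, adjusted p = 0.00106 and 0.00305). CTSB lay at 2582, 2639.7 and 2578 CPM with Nutlin, 3888, 3470.1 and 3479 in N+PD24 and 3761, 2837 and 2837 in N+PD30. CTSL1, the gene of cathepsin L, lay at 159, 193 and 198 CPM in DMSO, 239, 278 and 283 in PD24 and 191, 211 and 199 in PD30. PD24 lay above both other groups, and PD30 overlapped DMSO. CTSL1 rose by 0.55 ± 0.12 in PD24 (edgeR, adjusted p = 0.00560) and differed by 0.16 ± 0.10 in PD30 (adjusted p = 0.199). With Nutlin it lay at 223, 280.3 and 266 CPM alone, 351, 407 and 391 in N+PD24 and 301, 273 and 231 in N+PD30. CTSL1 has pseudogenes, with which it may share reads.

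**Figure D3:**
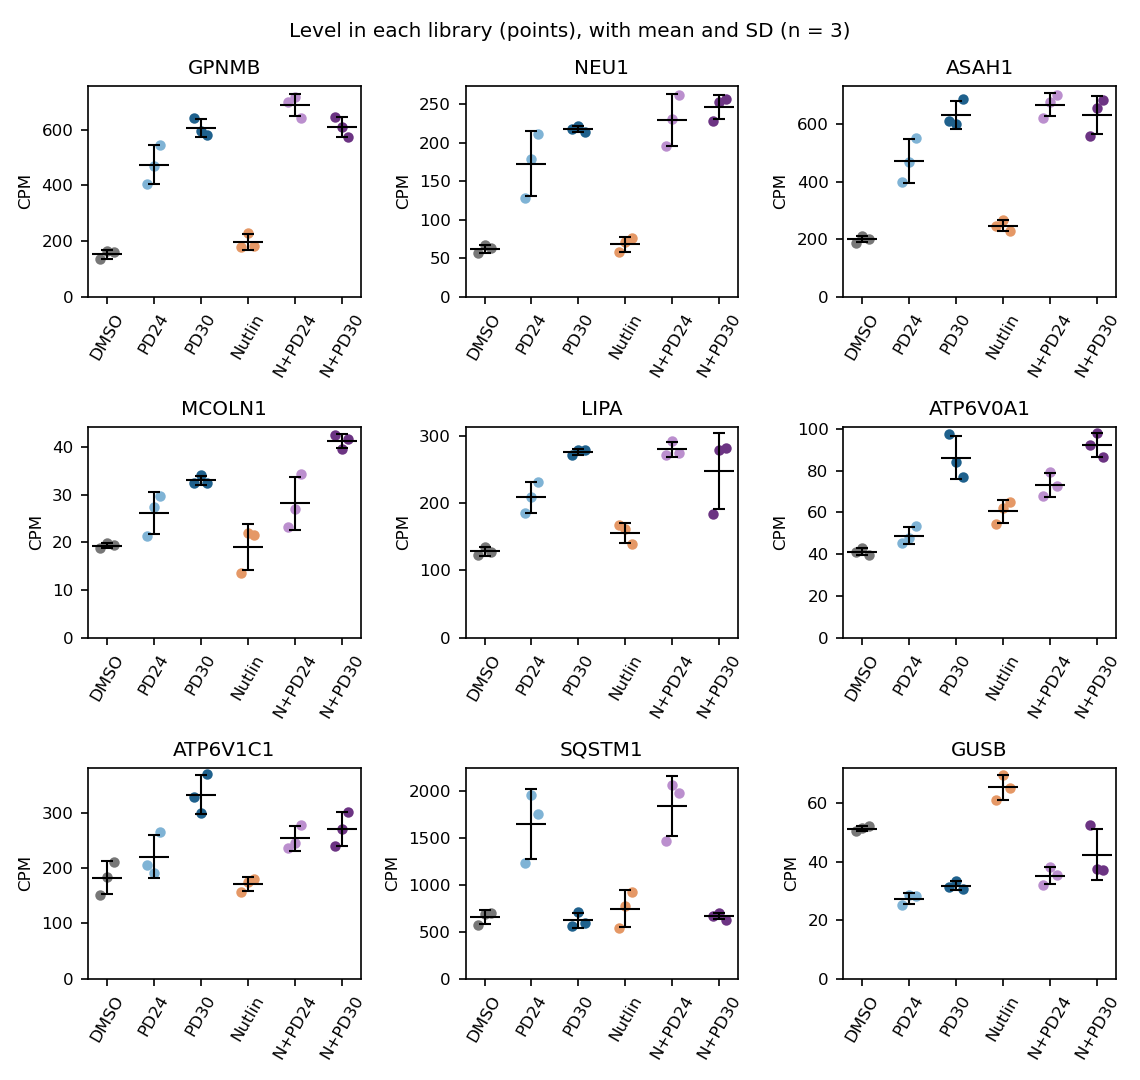
CPM in each library (points) with the group mean and SD (n = 3) for GPNMB, NEU1, ASAH1, MCOLN1, LIPA, ATP6V0A1, ATP6V1C1, SQSTM1 and GUSB over the 6 groups. SQSTM1 stands at 1654 CPM in PD24 and 1845 in N+PD24, compared with 623 in PD30 and 665 in N+PD30, and GUSB is lower in every PD0332991 group than in the matching control.

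GUSB and GLA went the other way. GUSB, β-glucuronidase, lay at 50.4, 51.4 and 52.3 CPM in DMSO, 25.1, 28.7 and 28.3 in PD24 and 31.3, 33.6 and 30.6 in PD30. PD24 was lowest, and PD30 lay between PD24 and DMSO without overlap. GUSB was 1.58-fold lower in PD30 and 1.87-fold lower in PD24 (edgeR, adjusted p = 1.91e-04 and 1.95e-04). Its levels under Nutlin were 61.2, 69.9 and 65.3 CPM alone, 32.1, 38.0 and 35.4 in N+PD24 and 52.4, 37.5 and 37.1 in N+PD30, and all Nutlin libraries lay above the other 2 groups. GUSB has many pseudogenes, some of them counted as genes of their own in these tables. GLA, α-galactosidase A, lay at 37.6, 48.8 and 43.6 CPM in DMSO, 26.5, 30.8 and 28.3 in PD24 and 28.0, 31.8 and 23.7 in PD30. PD24 and PD30 overlapped below DMSO, at 1.51-fold and 1.52-fold lower (edgeR, adjusted p = 0.00625 and 0.00544). GLA lay at 41.7, 45.2 and 37.9 CPM with Nutlin, 30.7, 34.4 and 28.5 in N+PD24 and 25.0, 33.7 and 19.4 in N+PD30. Its exons overlap RPL36A.

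The remaining hydrolases were CTSF, CTSZ, GLB1, HEXA, IDS, NAGLU, PSAP, SGSH and TPP1, with CTSA above. In PD30 they differed from DMSO by 0.14 (CTSZ) to 1.25 (SGSH, the heparan sulfamidase), and CTSZ alone among them was not called (edgeR, adjusted p = 0.271). TPP1, a tripeptidyl peptidase, rose by 1.24, and NAGLU, which also degrades heparan sulfate, by 1.08. PSAP, the precursor of the saposins that activate sphingolipid hydrolases, had means of 1108 ± 40.3 CPM in DMSO, 1467 ± 187 in PD24 and 1639 ± 42.2 in PD30 (SD, n = 3). It rose by 0.60 in PD30 and 0.41 in PD24. Exons of LIPA overlap those of IFIT2 and IFIT3, of SGSH those of CARD14 and SLC26A11, of CTSZ those of NELFCD, of HEXA those of its antisense gene and of GLB1 those of TMPPE. The study counted reads with the reverse-strand setting of HTSeq, and the library kit is not stated to keep strand, so reads from such places cannot be told apart with certainty.

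The V0 sector conducts the protons, and 5 of its 6 genes rose in PD30 and 5 in PD24, compared with 22.9% and 17.5% of all genes. ATP6V0A1, the subunit a that forms the proton path together with the ring, at chr17:40610862-40674600 (hg19, plus strand), lay at 41.2, 42.8 and 39.5 CPM in DMSO, 45.2, 47.8 and 53.6 in PD24 and 97.3, 84.3 and 77.1 in PD30. The groups did not overlap, but PD24 lay close to DMSO. ATP6V0A1 was 2.15-fold higher in PD30 (log2 1.10 ± 0.11, edgeR adjusted p = 3.83e-05), whereas its PD24 difference was 0.25 ± 0.10 (adjusted p = 0.0758). Under Nutlin it lay at 54.3, 62.1 and 65.2 CPM alone, 67.6, 79.2 and 72.7 in N+PD24 and 92.2, 98.0 and 86.4 in N+PD30. These groups were separated in the same order. ATP6AP1, an accessory subunit needed for assembly, lay at 202, 202 and 182 CPM in DMSO, 274, 348 and 336 in PD24 and 357, 395 and 339.6 in PD30. It rose by 0.93 ± 0.085 in PD30 and 0.72 ± 0.11 in PD24 (edgeR, adjusted p = 2.06e-05 and 0.00108), and PD24 and PD30 overlapped. ATP6AP1 stood at 231, 262 and 250.1 CPM with Nutlin, 383, 434 and 445 in N+PD24 and 491, 462 and 429.7 in N+PD30.

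The proteolipids of the V0 ring were higher in PD24 than in PD30 by their means. ATP6V0C lay at 65.3, 52.1 and 38.5 CPM in DMSO, 99.4, 142 and 78.8 in PD24 and 64.5, 94.7 and 73.9 in PD30. Its libraries were widely spread, and PD30 overlapped both other groups. ATP6V0C rose by 1.05 ± 0.24 in PD24 (edgeR, adjusted p = 0.00883) and by 0.61 ± 0.19 in PD30 (adjusted p = 0.0227), the latter call being lost without DMSO replicate 2 or PD30 replicate 2 (p 0.0643 and 0.0837). It lay at 55.6, 108 and 85.1 CPM with Nutlin, 83.8, 134 and 148 in N+PD24 and 169, 156 and 125 in N+PD30. ATP6V0B lay at 84.9, 91.9 and 86.2 CPM in DMSO, 105, 140.3 and 114 in PD24 and 98.8, 113 and 90.2 in PD30. It rose by 0.46 ± 0.12 in PD24 (edgeR, adjusted p = 0.0176), and PD30 overlapped DMSO (log2 0.23 ± 0.10, adjusted p = 0.0770, or 0.0124 without PD30 replicate 3). Under Nutlin, ATP6V0B lay at 86.4, 109.6 and 106 CPM alone, 134, 151 and 148 in N+PD24 and 146, 140.5 and 125 in N+PD30. ATP6V0D1 and ATP6V0E1 rose by 0.72 and 0.67 in PD30 and by 0.60 and 0.55 in PD24. ATP6V0C and ATP6V0E1 have pseudogenes that may share reads with them.

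The V1 sector hydrolyses ATP, and all 7 of its genes rose in PD30 (22.9% of all genes), with a median of 0.74. In PD24 4 of 7 were called higher (17.5% of all genes), and the other 3 had positive differences too. The summed level of the 7 genes was 1081, 1213 and 1266 CPM in the DMSO libraries, 1506, 1451 and 1692 in PD24 and 1842, 1825 and 1894 in PD30. ATP6V1C1, the subunit C that is lost when V1 and V0 come apart, lay at 152, 183 and 211 CPM in DMSO, 206, 190.5 and 266 in PD24 and 329, 299.8 and 370.0 in PD30. PD30 lay above both other groups, which overlapped. ATP6V1C1 rose by 0.90 ± 0.13 in PD30 (edgeR, adjusted p = 3.53e-04), with a PD24 difference of 0.28 ± 0.15 (adjusted p = 0.176). It lay at 157, 175 and 180.3 CPM with Nutlin, 237, 245 and 278 in N+PD24 and 239.8, 271 and 301 in N+PD30, the latter pair overlapping above Nutlin. ATP6V1A, the catalytic subunit, lay at 151, 174 and 176 CPM in DMSO, 203, 200.1 and 255 in PD24 and 251, 263 and 304 in PD30. It rose by 0.74 ± 0.093 in PD30 and 0.40 ± 0.11 in PD24 (edgeR, adjusted p = 1.74e-04 and 0.0231), and PD24 and PD30 overlapped. Under Nutlin, ATP6V1A lay at 220.1, 231 and 212 CPM alone, 285, 299 and 301 in N+PD24 and 223, 278 and 275 in N+PD30.

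ATP6V1G1, of the peripheral stalks, lay at 112, 127 and 125 CPM in DMSO, 202, 177 and 202 in PD24 and 204, 198 and 213 in PD30. Both drug groups lay above DMSO and overlapped each other, with log2 differences of 0.79 ± 0.079 and 0.68 ± 0.095 (edgeR, adjusted p = 3.84e-05 and 6.54e-04). With Nutlin it lay at 129.5, 139 and 122 CPM alone, 237, 205 and 229 in N+PD24 and 167, 193 and 194 in N+PD30. ATP6V1B2, the other subunit of the catalytic ring, lay at 329.9, 354 and 371 CPM in DMSO, 402, 394 and 449 in PD24 and 486, 478 and 436 in PD30. It rose by 0.44 ± 0.086 in PD30 (edgeR, adjusted p = 0.00234) and lay at 344, 380.4 and 385 CPM with Nutlin, 485, 461 and 478 in N+PD24 and 428, 446 and 435 in N+PD30. ATP6V1D, of the central shaft, lay at 46.4, 49.9 and 56.5 CPM in DMSO, 62.0, 52.3 and 59.5 in PD24 and 61.2, 62.3 and 63.8 in PD30, the smallest V1 rise at 0.32 ± 0.094 (edgeR, adjusted p = 0.0176). That call was lost without DMSO replicate 1, DMSO replicate 2 or PD30 replicate 1 (p 0.0578, 0.0760 and 0.0563). ATP6V1D lay at 50.4, 51.7 and 45.6 CPM with Nutlin, 75.4, 61.8 and 61.0 in N+PD24 and 53.1, 59.6 and 54.3 in N+PD30. ATP6V1E1 and ATP6V1H rose by 0.75 and 0.73 in PD30 and by 0.54 and 0.44 in PD24. ATP6V1E1 and ATP6V1G1 have pseudogenes, and exons of ATP6V1D overlap PALS1.

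GPNMB, a membrane glycoprotein of lysosomes and melanosomes and a known MiT target, had the largest difference of the 40 between PD30 and DMSO. The gene lies at chr7:23275586-23314727 (hg19, plus strand). GPNMB lay at 134, 163 and 161 CPM in DMSO, 406, 469.6 and 547 in PD24 and 643, 597 and 582 in PD30. The groups did not overlap. GPNMB was 4.07-fold higher in PD30 (log2 2.02 ± 0.10, edgeR adjusted p = 3.28e-07) and 3.11-fold higher in PD24 (log2 1.64 ± 0.13, adjusted p = 1.65e-05). It lay at 179.6, 229 and 181 CPM with Nutlin, 702, 720.0 and 644 in N+PD24 and 646, 610.1 and 576 in N+PD30, where the latter pair overlapped. Macrophages and melanocytes also express GPNMB, and of their defining markers PTPRC had group means of at most 0.298 CPM and TYR of at most 0.0114 CPM. CD68, which encodes a lysosomal membrane protein as well as a macrophage marker, went from 16.5 ± 2.82 CPM in DMSO to 28.6 ± 4.31 in PD30. The 5 macrophage markers (PTPRC, CD14, CSF1R, ITGAM and CD68) summed to 22.1 to 32.1 CPM in the DMSO libraries, 33.8 to 36.4 in PD24 and 30.0 to 40.8 in PD30, and the 4 melanocyte markers (TYR, PMEL, MLANA and DCT) to 1.24 to 1.81, 1.74 to 2.02 and 1.62 to 2.19 CPM. GPNMB itself was above the sum of either list in every library, and the part of other cells in its rise was not tested.

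SQSTM1, the autophagy receptor p62 that is itself degraded in lysosomes, had another pattern. The gene lies at chr5:179233398-179265078 (hg19, plus strand). SQSTM1 lay at 575, 692 and 704 CPM in DMSO, 1239.6, 1965 and 1756 in PD24 and 563, 716 and 589.7 in PD30. Only the PD24 libraries stood apart, and DMSO and PD30 overlapped. SQSTM1 was 2.52-fold higher in PD24 than in DMSO (log2 1.34 ± 0.17, edgeR adjusted p = 3.63e-04), and the PD30 difference was -0.048 ± 0.11 (adjusted p = 0.748). Under Nutlin the same held, with 543, 771 and 929.9 CPM alone, 1475, 2072 and 1988 in N+PD24 and 669, 695 and 630.2 in N+PD30. N+PD24 stood 1.33 ± 0.20 above Nutlin on the log2 scale (limma, adjusted p = 9.16e-04). SQSTM1 exons overlap those of MGAT4B and MRNIP on the opposite strand.

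Keeping the drug for the last 6 h was next compared with removing it. Between PD30 and PD24, 6 of the 40 genes were higher and 2 lower, compared with 12.2% and 12.9% of 15171 genes. The share that was higher was thus close to that of all genes. The median was 0.20, and that of all genes was -0.020. In 15 genes all PD30 libraries lay above all PD24 libraries (19.2% of all genes), and in 3 they lay below (22.7%). Libraries of the same replicate number deviated together in these 2 groups, and with the replicate number as a block 17 were higher and 3 lower, compared with 19.7% and 20.6% of all genes. Without the block the number called was 3 without PD30 replicate 1, 4 without PD30 replicate 3, 5 without PD24 replicate 1 or 2, 6 without PD30 replicate 2 and 13 without PD24 replicate 3, compared with 8 in all. The share of all genes called moved too, from 14.05% without PD30 replicate 1 to 26.93% without PD24 replicate 3.

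The genes higher in PD30 in both fits were ATP6V0A1, ATP6V1C1, ASAH1, LIPA, GPNMB and ATP6V1H. ATP6V0A1 had the largest difference, 0.85 ± 0.13 (edgeR, adjusted p = 0.00190; with the block 0.84 ± 0.12, adjusted p = 7.63e-04), followed by ATP6V1C1 with 0.62 ± 0.13 (adjusted p = 0.00961; with the block 4.04e-04). ASAH1 differed by 0.45 ± 0.12, LIPA by 0.43 ± 0.10 and GPNMB by 0.39 ± 0.12 (edgeR, adjusted p = 0.0264, 0.0152 and 0.0427; with the block 0.00333, 0.00343 and 0.0198). ASAH1 lost its call without PD24 replicate 1 or 2 or PD30 replicate 1 or 3 (edgeR, adjusted p 0.0531 to 0.0846), LIPA without PD30 replicate 1 (adjusted p = 0.0622), and GPNMB without any 1 library except PD24 replicate 3 (p 0.0644 to 0.160). The genes lower in both fits were SQSTM1, by 1.38 ± 0.17, and CTSL1, by 0.39 ± 0.10 (edgeR, adjusted p = 8.25e-04 and 0.0226; with the block 4.31e-05 and 0.00424). CTSL1 lost its call without PD24 replicate 2 or PD30 replicate 1 or 3 (p 0.0630, 0.102 and 0.0718).

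Called with the block but not without it in edgeR were TFEB, MCOLN1, LAMP2, CTSF, GLB1, IDS, NEU1, SGSH, TPP1, ATP6V1A and ATP6V1E1, all higher, and ATP6V0C, lower. Their differences with the block ran from 0.21 (IDS) to 0.87 (TFEB) for the former, and ATP6V0C differed by -0.41 (edgeR with the block, adjusted p = 0.0152). MCOLN1 differed by 0.37 ± 0.12 and NEU1 by 0.39 ± 0.13 (edgeR with the block, adjusted p = 0.0317 and 0.0436). Without the block, TFEB and MCOLN1 were also called after quantile normalization (limma, adjusted p = 0.0465 and 0.0479) and ATP6V1A by DESeq2 (adjusted p = 0.0489). LAMP1, CTSD and TFE3 differed by 0.076 ± 0.11, -0.086 ± 0.17 and -0.044 ± 0.11 without the block (edgeR, adjusted p = 0.650, 0.753 and 0.806). The other named members of the V-ATPase were ATP6AP1 at 0.22, ATP6V0B at -0.23, ATP6V1G1 at 0.11 and ATP6V1D at 0.14, none of them called in either fit, and CTSB was at -0.13.

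**Figure D4:**
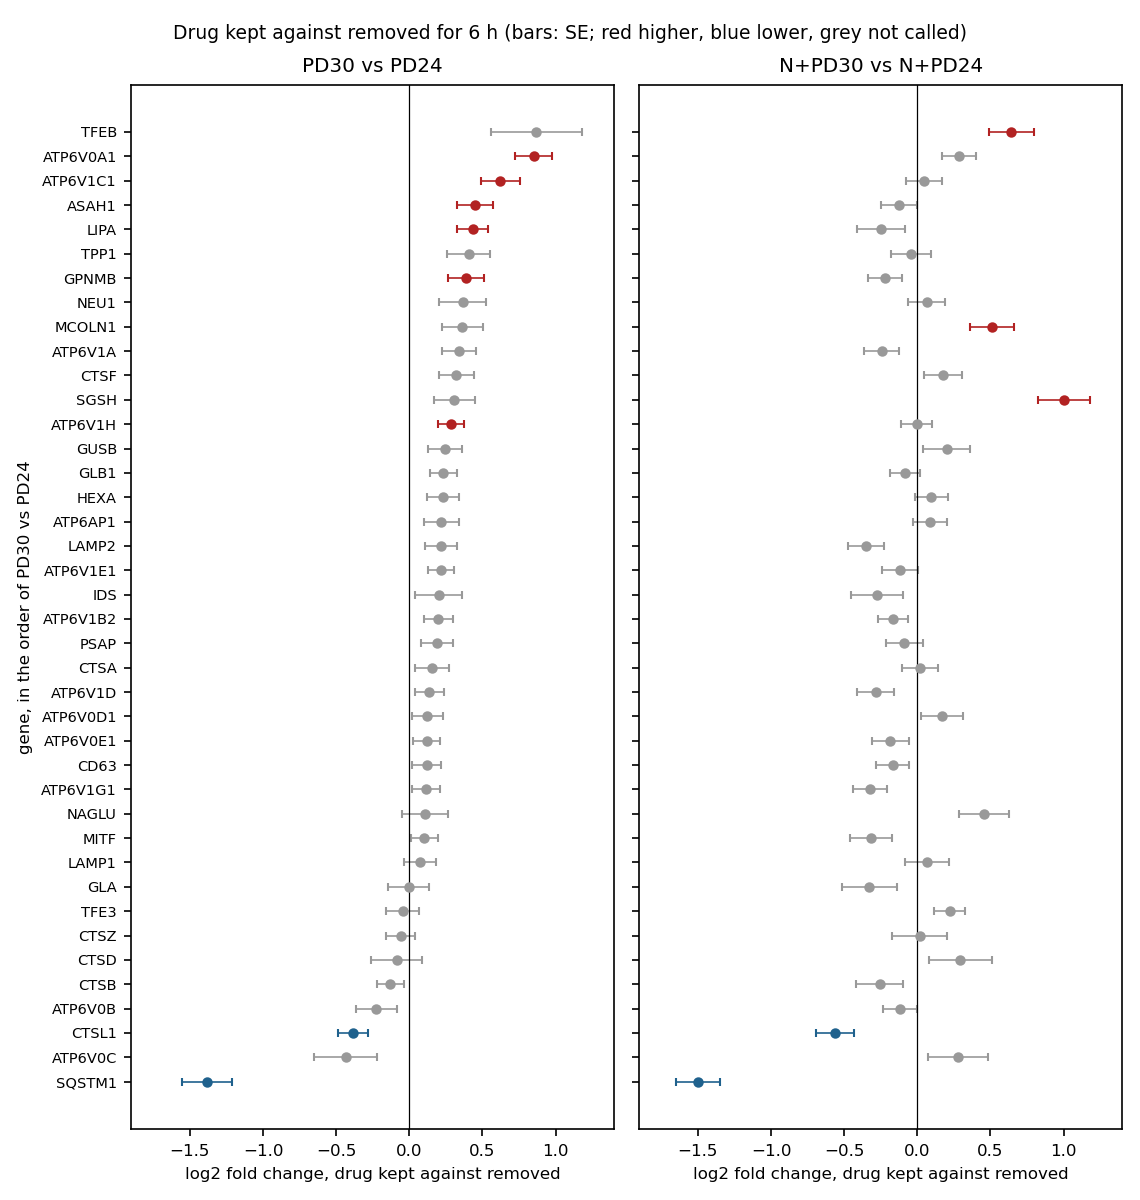
Log2 difference (± SE) of each member between the groups that kept PD0332991 and those from which it was removed, without Nutlin (PD30 vs PD24, edgeR without the replicate block) and with it (N+PD30 vs N+PD24, limma on log2(CPM + 1)). Red marks genes called higher, blue lower and grey not called. SQSTM1 and CTSL1 are blue in both panels, and no gene is red in both.

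With Nutlin in the last 6 h the median difference between keeping and removing the drug was close to 0 and its sign depended on the scaling. Between N+PD30 and N+PD24, 3 of 40 genes were higher and 2 lower (limma on log2(CPM + 1), compared with 15.8% and 16.3% of 15566 genes). The median was -0.061, compared with 0.051 by total-count scaling and 0.061 after quantile normalization. By total-count scaling 8 of the 40 genes were called, as were 32.82% of all genes. In 7 genes N+PD30 lay wholly above N+PD24 (25.1% of all genes) and in 8 wholly below (22.2%). N+PD24 had the highest mean and N+PD30 a middle one in 19 of the 40 genes (47.5%, compared with 12.9% of all genes). N+PD30 had the highest mean and N+PD24 a middle one in 17 (42.5%, compared with 24.8% of all genes). With Nutlin lowest only these 2 orders are possible, so both shares partly repeat the rise over Nutlin. Of the 2, N+PD30 highest was the commoner order among all genes, and N+PD24 highest among the members. SQSTM1 also had its highest mean in N+PD24, with N+PD30 lowest. These libraries are separate from those of PD30 and PD24, and 19 of the 40 genes had the same sign in both comparisons, compared with 62.6% of 14909 genes. Whether the 2 effects of removal differ was not tested. SQSTM1 was lower by 1.502 ± 0.15 and CTSL1 by 0.56 ± 0.13 (limma, adjusted p = 2.49e-04 and 0.00997), the CTSL1 call being lost without N+PD24 replicate 2 (adjusted p = 0.0533). SGSH was higher by 1.003 ± 0.17, TFEB by 0.64 ± 0.15 and MCOLN1 by 0.51 ± 0.15 (limma, adjusted p = 0.00255, 0.0103 and 0.0283). TFEB is low enough for the added 1 CPM to shrink its difference, which was 1.36 on the recovered reads (edgeR, adjusted p = 0.00862). The MCOLN1 call was lost without N+PD24 replicate 1 or 2 or N+PD30 replicate 2 (p 0.0666 to 0.0922), and the number called was 3 without N+PD24 replicate 2 and 8 without N+PD30 replicate 3, compared with 5 in all. The share of all genes called was 20.63% and 29.52% in those fits. LAMP2, another main membrane glycoprotein, had the third lowest difference at -0.35 ± 0.12 (limma, adjusted p = 0.0513).

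The effect of PD0332991 was also measured in cells that received Nutlin. Between N+PD30 and Nutlin 28 of 40 genes rose and 2 fell, compared with 24.3% and 24.7% of 15721 genes (edgeR), with a median of 0.51. All N+PD30 libraries lay above all Nutlin libraries in 32 genes (30% of all genes) and below in 2 (28.1%). NEU1 rose by 1.82 ± 0.14, GPNMB by 1.60 ± 0.13 and SGSH by 1.54 ± 0.17 (edgeR, adjusted p = 2.57e-06, 6.38e-06 and 4.32e-05). GLA fell by 0.71 ± 0.19 and GUSB by 0.67 ± 0.15 (adjusted p = 0.00934 and 0.00460), and SQSTM1 differed by -0.21 ± 0.18 (adjusted p = 0.355). LAMP1 differed by 0.36 ± 0.14 (edgeR, adjusted p = 0.0598), and it was called higher with total-count scaling, quantile normalization or no filter (adjusted p = 0.0321, 0.0285 and 0.0467). PD30 with DMSO and N+PD30 with Nutlin are separate libraries, and all 40 genes had the same sign in both comparisons (TFEB at only 0.0020 in the former), compared with 71.9% of 14888 genes. Of the 40, 26 rose in both (65%, compared with 14.1% of all genes), and GUSB and GLA fell in both.

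**Figure D5:**
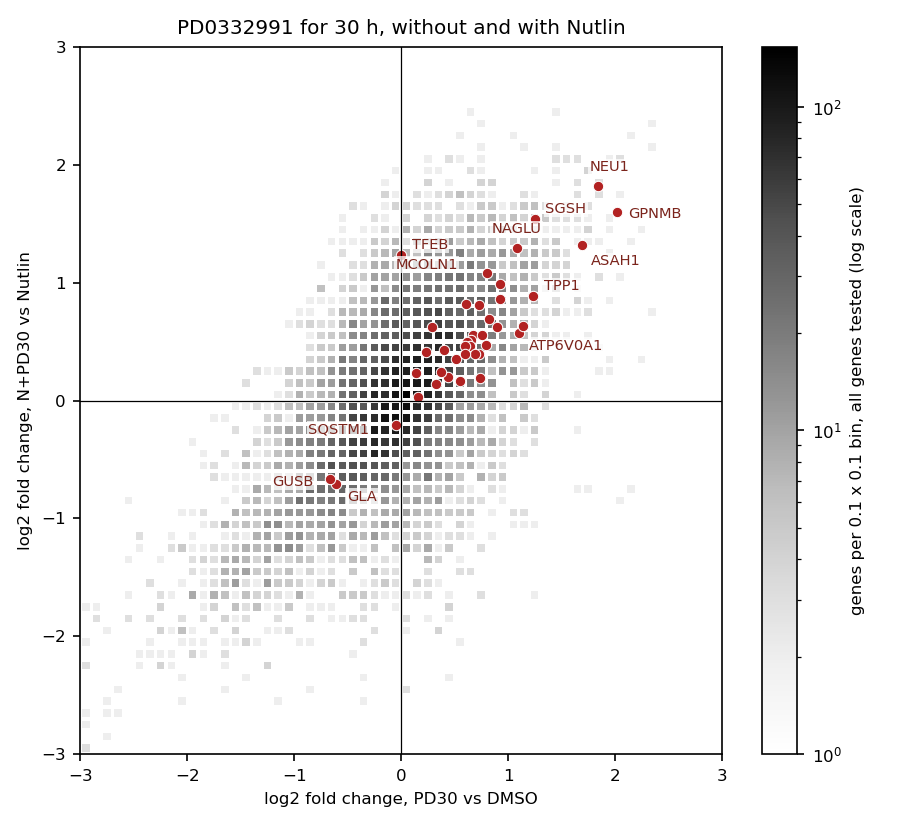
Log2 difference N+PD30 vs Nutlin (vertical axis) against PD30 vs DMSO (horizontal axis), for the 40 members (red points, some named) over the counts of all 14888 genes in bins (grey), of which 356 lie outside the plotted range. The members lie in the upper right except for GUSB, GLA and SQSTM1.

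In N+PD24, in which Nutlin was given after the removal of PD0332991, 30 genes were above Nutlin and 2 below (limma on log2(CPM + 1), compared with 17% and 17.2% of 15927 genes), with a median of 0.55. Groups were separate upward in 33 genes (23.3% of all genes) and downward in 2 (24.4%). With the replicate number as a block, 36 were higher and 2 lower, compared with 26.8% and 26.2%, and the genes gained were MCOLN1, LAMP1, CTSF, SGSH, ATP6V0A1 and ATP6V0C. GPNMB rose by 1.82 ± 0.12, NEU1 by 1.75 ± 0.14 and ASAH1 by 1.44 ± 0.10 (limma, adjusted p = 4.17e-06, 1.33e-05 and 5.19e-06). GUSB fell by 0.87 ± 0.11 and GLA by 0.39 ± 0.12 (adjusted p = 3.05e-04 and 0.0310). The GLA call was lost without Nutlin replicate 1 or 2 or N+PD24 replicate 3 (p 0.0664 to 0.104). CTSD, at 0.71 ± 0.23 (limma, adjusted p = 0.0415), lost its call without Nutlin replicate 1 or 3 or N+PD24 replicate 2 or 3 (p 0.0654 to 0.165). It also lost it with total-count scaling, quantile normalization or no filter (limma, adjusted p = 0.0747, 0.130 and 0.0963), and kept it with the block (adjusted p = 4.43e-07). N+PD24 and N+PD30 were compared with the same Nutlin libraries.

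Nutlin alone for 6 h also left many of these genes higher. Between Nutlin and DMSO 26 rose and 2 fell, compared with 26.6% and 28% of 15766 genes, and the median was 0.35. All Nutlin libraries lay above all DMSO libraries in 23 genes (25% of all genes) and below in 2 (36.5%). CTSD rose by 0.78 ± 0.19, ATP6V0C by 0.76 ± 0.23 and ATP6V0A1 by 0.64 ± 0.10 (edgeR, adjusted p = 0.00587, 0.0191 and 4.35e-04). After quantile normalization the CTSD difference was 0.47 and was not called (limma, adjusted p = 0.0599). The ATP6V0C call was lost without DMSO replicate 3 or Nutlin replicate 2 or 3 (p 0.0559 to 0.0952). LAMP1 rose by 0.59 ± 0.11 (adjusted p = 0.00147), and MCOLN1 and SQSTM1 differed by 0.062 ± 0.17 and 0.27 ± 0.17 (edgeR, adjusted p = 0.783 and 0.204), but MCOLN1 was at -0.062 with total-count scaling and SQSTM1 at -0.049 after quantile normalization. The 2 genes that fell were TFEB and MITF. By role, 3 of 4 membrane proteins, 13 of 18 hydrolases, all 6 V0 genes, 3 of 7 V1 genes and GPNMB rose.

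Whether Nutlin altered the effect of 30 h of PD0332991 was tested as an interaction over 12 libraries (DMSO, PD30, Nutlin and N+PD30). Of the 40 genes 0 had a larger rise with Nutlin than without it, and 2 had a smaller one, ATP6V0A1 and ATP6V1A (edgeR, adjusted p below 0.05), compared with 12.8% and 7.03% of 16113 genes. At an unadjusted p below 0.05 there were 2 genes upward and 8 downward. DESeq2 called 0 upward and 5 downward, the fit with the replicate block 1 and 3, and limma after quantile normalization 1 and 6. Of all genes these fits called 21.96%, 25.63% and 19.39%, counting both directions. The largest upward difference was that of TFEB, 1.28 ± 0.43 (edgeR, adjusted p = 0.0525). For ATP6V0A1 the rise was 1.10 without Nutlin and 0.57 with it, and for ATP6V1A 0.74 and 0.19 (edgeR interaction, adjusted p = 0.0368 and 0.0312). ATP6V0A1 lost its call unless the library left out was Nutlin replicate 1, PD30 replicate 3 or N+PD30 replicate 1 (p 0.0502 to 0.112), and ATP6V1A without DMSO replicate 1, DMSO replicate 2, Nutlin replicate 2 or PD30 replicate 3 (p 0.0569 to 0.0849).

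A list of 121 other lysosomal, autophagy and nutrient-sensing genes, of which 118 passed the filter, was read beside the members. Between PD30 and DMSO 75 of them rose and 3 fell, and between PD24 and DMSO 59 rose and 7 fell, with medians of 0.47 and 0.42, compared with 22.9% and 25.4% of all genes in PD30 and 17.5% and 20.8% in PD24. By class, 28 of 40 further hydrolases and cofactors, 18 of 25 further membrane proteins and transporters, 5 of 9 genes of enzyme sorting, 4 of 10 further V-ATPase subunits, 10 of 15 genes of MiT control and nutrient sensing and 10 of 19 autophagy genes rose in PD30. The largest rises in PD30 were those of SLC17A5, the sialic acid exporter of the lysosome, by 1.999, LAMP3 by 1.70, the sulfatase ARSG by 1.66 and WIPI1, which acts early in autophagosome formation, by 1.61. SLC17A5 lay at 15.4, 19.5 and 18.3 CPM in DMSO, 26.0, 28.8 and 37.8 in PD24 and 67.3, 67.7 and 73.6 in PD30. It was fully separated in that order. Those that fell were CTSL2 by 1.45, GGH by 0.81 and ABCB9 by 0.68 on the log2 scale. Between PD30 and PD24, 16 of the 118 were higher and 3 lower, and the share that was higher was close to that of all genes (12.2%, with 12.9% lower). The most raised were CTSK by 1.57, SLC17A5 by 1.198, TMEM55B by 0.91 and WIPI1 by 0.89, and the lowest were ABCB9 at -0.61, TPCN2 at -0.50 and MFSD8 at -0.40. CTSK was low throughout, with 1.00 ± 0.146 CPM in PD24 and 2.92 ± 1.30 in PD30 (SD, n = 3). With Nutlin, 68 of the list rose and 6 fell between N+PD30 and Nutlin (24.3% and 24.7% of all genes), and 61 rose and 5 fell between N+PD24 and Nutlin (17% and 17.2%). Between N+PD30 and N+PD24 18 were higher and 11 lower, the former close to the share of all genes (15.8%, with 16.3% lower). Between Nutlin and DMSO 51 rose and 14 fell (26.6% and 28%).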

How the data were processed

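RNA from 18 SJSA cultures, called biological triplicates by the study, was sequenced with a TruSeq RNA kit, which is not stated to keep strand. According to the submitters' processing notes TopHat with Bowtie 2 placed the reads on hg19, and HTSeq 0.6.0 assigned them to genes, with the reverse-strand setting per the methods of the study. Groups were taken from the sample labels. The authors deposited whole-number read counts per gene for DMSO, Nutlin, PD24, PD30 and N+PD30. For N+PD24 the deposited values are a signal, namely counts that the authors divided by DESeq2 size factors, and all of them came out as whole reads (tolerance 0.01) when the factor was removed. Further tables of normalized values and of the authors' own Nutlin against DMSO test, which hold fold changes and p-values, were not used. Of the 23368 genes 21709 had a count, and 28 rows bore dates in place of gene names.

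Count groups were compared with edgeR 4.0.16 (TMM, filterByExpr, quasi-likelihood test, R 4.3.3), 2 groups per fit, and the interaction over 12 libraries. Comparisons with N+PD24 used limma 3.58.1 with a trend on log2(CPM + 1) of the deposited values, a scale that understates changes of low genes. Running the count test there on the recovered reads is an alternative. Genes with a Benjamini-Hochberg adjusted p below 0.05 over all genes tested were called. The p-values set the difference between group means against the spread between 3 libraries per group, estimated with help from the other genes. An exact permutation test of 3 against 3 cannot go below 0.1. Correlating the deviations from the group means over genes, libraries of the same number went together in PD30 and PD24 (r 0.314, 0.575 and 0.305) and in N+PD24 and Nutlin (0.645, 0.401 and 0.488). Pairing rests on these data alone, and blocked values are given there.

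Alternatives were total-count scaling, quantile normalization, DESeq2 1.42.0, no filter, another pseudocount (0.1), an added log2 limit of 1, a replicate block and leaving out each library. The procedure was tested on simulated data with gene levels and depths taken from PD30 vs DMSO (edgeR) and N+PD24 vs Nutlin (limma). The spread was set to the same value for all genes and was not estimated from these libraries. Genes simulated 1.5-fold higher were called in 35% by edgeR and 32% by limma. Those simulated at 0.5-fold were called in 88% and 94%. Changes of the smaller size were thus often missed at that spread, and the rate missed in the data themselves was not measured. Counting error is small for most members, and TFEB, at 13 to 69 reads, is the exception. Members and lists were chosen with earlier results of these data known. Values in every library are given for TFEB, TFE3, MITF, MCOLN1, LAMP1, CTSD, SQSTM1 and GPNMB and, within the hydrolases, the V0 and the V1 genes, for the 2 highest and 2 lowest differences of PD30 vs DMSO and of PD30 vs PD24, ATP6V1A among them. Elsewhere the 3 highest and 3 lowest members are named, and of the pathway list up to 4 called genes in each direction in those 2 comparisons. Promoters of 28 members, matched by symbol, come from RefSeq (GRCh38.p14), and gene positions and exon overlaps from GENCODE mapped to hg19.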

Additional observations from a re-analysis of the deposited data

Results flagged for a closer look

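The rise of ATP6V0A1 under 30 h of PD0332991 was smaller with Nutlin than without it, by -0.49 on the log2 scale (1.10 without and 0.57 with Nutlin), and it was singled out because the interaction test itself passed (edgeR, adjusted p = 0.0368). ATP6V1A was singled out for the same reason, with a difference of -0.51 (0.74 and 0.19, edgeR, adjusted p = 0.0312). They were the 2 of 40 members called lower in that test, compared with 7.03% of 16113 genes. The mean of ATP6V0A1 was 41.1 ± 1.67 CPM in DMSO and 60.5 ± 5.60 in Nutlin, and that of ATP6V1A 167 ± 13.8 and 221 ± 9.38 (SD, n = 3), so both started higher with Nutlin. Both calls depend on single libraries, as given with the interaction above.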

How the results depend on the processing

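With all libraries kept, 73 of the counts, medians and shares over the members stayed close to the value given (a count within 1.5 times) and 21 did not. Of the named genes' differences 481 stayed on their side of the threshold, 18 gained a call, 11 lost it and 3 changed sign. Requiring a log2 difference over 1 in either direction as well left 8 members in PD30 vs DMSO, 6 in PD24 vs DMSO, 1 in PD30 vs PD24, 1 in Nutlin vs DMSO, 7 in N+PD30 vs Nutlin, 4 in N+PD24 vs Nutlin, 2 in N+PD30 vs N+PD24 and 0 in the interaction. SQSTM1 in PD30 vs PD24 and in N+PD30 vs N+PD24, and TFEB in Nutlin vs DMSO, were falls, and the others were rises. At this limit 5.76% of all genes rose in PD30 vs DMSO, and no share is given for the other comparisons. With total-count scaling the Nutlin vs DMSO median was 0.23 and MCOLN1 -0.062, the N+PD24 vs Nutlin median 0.48, and N+PD30 vs N+PD24 had 8 called (of all genes 32.82%) and a median of 0.051. With quantile normalization the N+PD24 vs Nutlin median was 0.48, the N+PD30 vs N+PD24 median 0.061, SQSTM1 in Nutlin vs DMSO -0.049, and the interaction called 7 (of all genes 19.39%). The interaction called 1 without a filter and 5 by DESeq2 (of all genes 14.36% and 21.96%). TFEB in PD30 vs DMSO was -0.0072 without a filter. The 7-base and 8-base search strings matched 32.1% and 17.9% of the members' promoters. Calls lost and not given above were MITF in PD24 vs DMSO (adjusted p 0.0532 with total-count scaling and 0.0643 without a filter), MITF in N+PD30 vs Nutlin (0.0622 after quantile normalization), TFE3 in N+PD24 vs Nutlin (0.0677 with total-count scaling and 0.0512 without a filter), MCOLN1 in N+PD30 vs N+PD24 (0.05001 after quantile normalization) and ATP6V0A1 in the interaction (0.0521 without a filter), by edgeR or limma. The causes were not tested.

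With the replicate block PD30 vs PD24 called 20 and the interaction 4, compared with 40.25% and 25.63% of all genes. Where numbers did not pair the libraries, the block called 34 higher and 2 lower in PD30 vs DMSO, 33 and 3 in PD24 vs DMSO, 25 and 2 in Nutlin vs DMSO, 29 and 2 in N+PD30 vs Nutlin and 3 and 3 in N+PD30 vs N+PD24. Of all genes it called 53.53%, 45%, 54.37%, 48.33% and 34.29% in these comparisons, in the same order and counting both directions. There not every library correlated best with its own number, and the lowest r of a pair was -0.27 (Nutlin vs DMSO).

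Leaving out each library in turn, PD30 vs PD24 called 3 to 13 with a median of 0.14 to 0.24, N+PD30 vs N+PD24 3 to 8 with a median of -0.075 to -0.010, the interaction 0 to 3, and the N+PD24 vs Nutlin median was 0.48 to 0.62. The share of all genes called ran from 14.05% to 26.93% in PD30 vs PD24. It ran from 20.16% to 30.76% in N+PD30 vs N+PD24 and from 13.8% to 20.01% in the interaction. Single genes ranged across 0 as follows. In PD30 vs DMSO TFEB lay from -0.23 to 0.18 and SQSTM1 from -0.15 to 0.0084. In PD30 vs PD24 LAMP1 lay from -0.021 to 0.12, TFE3 from -0.10 to 0.053 and CTSD from -0.21 to 0.16. MCOLN1 lay from -0.053 to 0.25 in Nutlin vs DMSO, TFEB from -0.12 to 0.0020 in N+PD24 vs Nutlin and LAMP1 from -0.056 to 0.15 in N+PD30 vs N+PD24.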
